A study of Mus musculus with 10 samples.

Results

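Gc, the vitamin D-binding protein, and 4 other plasma proteins made mainly by the liver (Alb, Ttr, Apoa1 and Fga) were followed through RNA-seq libraries of tumour epithelium from a mouse model of pancreatic ductal adenocarcinoma. The 5 genes were taken by symbol from a table of 15624 genes. They were picked with their difference between the study's groups already known, so their own values are given as a description without a test. The question was whether the higher Gc in tamoxifen libraries came with other liver transcripts or stood alone.

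The study collected tumour epithelium from frozen sections of established KPFSR tumours by laser capture microdissection, in which chosen cells are lifted from a section under a microscope. The labels give 4 libraries from mice on corn oil, the vehicle, and 6 from mice on tamoxifen, and do not tie libraries to animals or give ages. Differences are therefore read against the spread between these libraries, which may in part be technical. The labels do not spell out the alleles. As background, KPFSR mice carry a Flp-activated oncogene, a mutant Trp53 allele, a Pdx1 promoter driving FlpO in the pancreas, floxed Slc7a11 (the cystine importer) on both chromosomes, and a tamoxifen-activated Cre at the Rosa26 locus. Both groups carry all of these alleles, and the Rosa26 locus is active in nearly all cell types, so Cre is not limited to tumour cells.

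Hepatocytes secrete most of the proteins of blood plasma, and a small set of transcription factors, among them HNF4, FOXA and C/EBP proteins, keeps their genes active. Gc, Alb and the fetal albumin Afp belong to 1 gene family and lie on the same chromosome. Gc carries vitamin D metabolites and binds actin released from damaged cells. Several of these genes are also used outside the liver: alpha cells of the pancreatic islet make Gc and Ttr, and enterocytes make Apoa1.

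Library totals ran from 16473902 to 36132316 counts with corn oil and from 6899347 to 19462115 with tamoxifen, where tamoxifen replicate 6 was the shallowest. Tamoxifen replicates 1 to 3 formed a close group, with pairwise Pearson r of at least 0.921 against at most 0.878 elsewhere (across genes, which are not independent replicates). The main test, SEs and SDs below take them as separate samples, which the labels neither state nor exclude. Xist and Ddx3y marked 2 female and 2 male libraries with corn oil, and 1 female and 5 male with tamoxifen. Slc7a11 averaged 32.1 ± 8.65 normalised CPM (SD, n = 4) in corn oil libraries and 12.1 ± 5.79 (SD, n = 6) in tamoxifen libraries, and the groups did not overlap. The labelled ductal epithelium was borne out by its markers: all 11 were measured, led by Krt18 and Krt19, and their summed level was 17417 to 31895 normalised CPM with corn oil and 15377 to 26567 with tamoxifen. CPM here means read counts brought to a common library total with edgeR's TMM factors, which allow for libraries of different composition.

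Gc lies on chromosome 5 of GRCm38 (89417522 to 89457898, minus strand, ENSMUSG00000035540.12) and no other annotated gene overlaps it. The bases just before its start are shown because they hold the motif that Gc was found to share with Alb and Fga. From RefSeq (GRCm38.p6), the 100 bases upstream at chr5:89457899-89457998, minus strand, read 5′ to 3′ as follows, with that motif in capitals.
Gc: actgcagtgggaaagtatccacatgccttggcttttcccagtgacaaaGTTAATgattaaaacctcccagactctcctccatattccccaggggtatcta

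The core motif searched for was GTTAAT, a sequence element of liver promoters, on both strands, in the 250 bases before and 50 bases after each start. It was found in the windows of 3 of the 4 members searched (Gc, Alb and Fga, not Apoa1). Ttr was not analysed here. It also occurred in the windows of the family genes Afp and Afm. Of all 32851 promoters of this length, 7.10% held it. The 30 bases around the site are set side by side to show how far the match goes on beyond the core. They come from chr5:89457929-89457958 (minus strand), chr5:90460830-90460859 (plus), chr3:83026094-83026123 (minus), chr5:90490601-90490630 (plus) and chr5:90518803-90518832 (plus), in the order listed, with the core in capitals.
Gc: gtgacaaaGTTAATgattaaaacctcccag
Alb: taagtatgGTTAATgatctacagttattgg
Fga: ggcaggagGTTAATcatcacccttggccca
Afp: cctgctctGTTAATtattggcaaattgcct
Afm: ttcccctaGTTAATaattacctagaaattt

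A longer palindromic site, which is this core, 1 free base and the inverted repeat of the core, was searched as well, with 12 letters fixed. None of these windows matched it exactly, and 0.00913% of all promoters did. Gc matched 11 of the 12 letters, Alb 10, Fga 10, Afp 10 and Afm 11. Afm held a second core motif, 73 to 68 bases before its start on the opposite strand, where 8 of the 12 letters matched. The 6 letters of the core are among these 12 and matched by construction, because the sites were picked by the core. The share of all promoters is for exact matches and does not apply to these partial scores. The Gc core motif lay 52 to 47 bases before the start, that of Alb 32 to 27 bases before and that of Fga 43 to 38 bases before, the last on the opposite strand. These distances are from RefSeq starts, which can differ from the GENCODE gene positions given below. The Fga stretch lies inside the GENCODE span of Fga. The HNF4 motif CAAAGT (14.4% of all promoters) was in Gc, where it overlaps the core motif, and in Alb. The C/EBP motif TTGCNNAA (10.8%) was in Alb, Fga and Afp. No member window held TGTTTAC for FOXA (3.65% of all), ACGTG for the hypoxia response core (19.6%) or CACGTG, an E-box that holds ACGTG (7.15%). A match describes letters only and shows no binding.

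Gc was 2.88 ± 1.73 normalised CPM (SD, n = 4) in corn oil libraries and 28.0 ± 14.5 (SD, n = 6) in tamoxifen libraries, 9.71 times higher by the means. The corn oil libraries held 5.23, 2.07, 3.02 and 1.21 normalised CPM, from 85, 68, 75 and 29 reads. The tamoxifen libraries, replicates 1 to 6, held 38.7, 14.5, 33.5, 28.7, 45.2 and 7.35 normalised CPM, from 444, 288, 707, 457, 909 and 45 reads. Every tamoxifen library lay above every corn oil library, and the lowest of them was the shallow replicate 6. Of 13006 tested genes, 166 (1.28%) showed every tamoxifen library above every corn oil library, and since this contrast chose Gc nothing is read from its being among them. The exact 95% Poisson intervals of the neighbouring libraries overlap: 4.18 to 6.47 for corn oil replicate 1 and 5.36 to 9.84 for tamoxifen replicate 6. These intervals cover counting error only. The fitted log2 fold change of Gc was 3.28 (SE 0.66). In bulk RNA, fewer cells of a type and less RNA per cell cannot be told apart.

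Alb, the most abundant plasma protein and the usual first sign of liver RNA, was nearly absent with corn oil. It had 0, 0, 9 and 0 reads in the corn oil libraries, which is 0.363 normalised CPM in replicate 3. A count of 0 allows up to 3 reads, or 0.185, 0.0915 and 0.125 normalised CPM in corn oil replicates 1, 2 and 4. In tamoxifen replicates 1 to 6 it had 144, 0, 34, 58, 22 and 0 reads, or 12.5, 0, 1.61, 3.64, 1.09 and 0 normalised CPM. Thus 4 of 6 tamoxifen libraries and 1 of 4 corn oil libraries held any Alb read, and the groups overlapped at 0. The limits for the tamoxifen libraries at 0 were 0.151 in replicate 2 and 0.490 in replicate 6. The group means were 0.0907 ± 0.181 (SD, n = 4) and 3.15 ± 4.79 (SD, n = 6), and the fitted log2 fold change was 5.01 with an SE of 2.2, and 2.72 with limma voom and sample quality weights. Replicate 1 alone carried most of the tamoxifen mean. Alb lies on chromosome 5 (90460897 to 90476602, plus strand).

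Ttr, transthyretin, carries thyroid hormone and the retinol-binding protein, and was the most abundant of the 5 in both groups. Corn oil replicates 1 to 4 held 107, 14.5, 114 and 3.33 normalised CPM, from 1743, 475, 2818 and 80 reads. Tamoxifen replicates 1 to 6 held 162, 156, 183, 58.2, 50.6 and 24.2, from 1864, 3089, 3859, 927, 1018 and 148 reads. The 3 similar tamoxifen libraries were the highest of all, and the other 3 lay between the low and the high corn oil libraries. The means were 59.7 ± 58.9 (SD, n = 4) and 106 ± 68.7 (SD, n = 6), the log2 fold change was 0.83 (SE 0.82), and it was -0.42 without tamoxifen replicates 1 to 3. With limma voom and sample quality weights it was 1.99. Ttr lies on chromosome 18 (20665280 to 20674321, plus strand).

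Apoa1, the main protein of high-density lipoprotein, varied within each group by far more than between them. Corn oil replicates 1 to 4 held 0.431, 11.2, 26.4 and 2.45 normalised CPM, from 7, 368, 654 and 59 reads. Tamoxifen replicates 1 to 6 held 20.2, 4.94, 9.29, 44.6, 17.2 and 0.327, from 232, 98, 196, 710, 345 and 2 reads. The highest and the lowest libraries were both tamoxifen libraries, replicates 4 and 6, and the corn oil values lay between them. The means were 10.1 ± 11.8 (SD, n = 4) and 16.1 ± 15.8 (SD, n = 6), with a log2 fold change of 0.67 (SE 1.10) that was -0.48 with sex as a covariate. With limma voom and sample quality weights the log2 fold change was 1.23. Apoa1 lies on chromosome 9 (46228580 to 46230466, plus strand).

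Fga, the fibrinogen alpha chain, was carried by few libraries. It had 9 reads in corn oil replicate 1 (0.554 normalised CPM) and 0 in the other 3. In tamoxifen replicates 1 to 6 it had 45, 1, 0, 106, 0 and 237 reads, or 3.92, 0.0505, 0, 6.66, 0 and 38.7 normalised CPM. It was highest in tamoxifen replicate 6, the library with the lowest Gc of its group, and at 0 in replicate 5, the library with the highest Gc. The means were 0.139 ± 0.277 (SD, n = 4) and 8.23 ± 15.2 (SD, n = 6). The fitted log2 fold change of 5.93 had an SE of 2.55, and it was 0.42 with limma voom and sample quality weights, which gives the libraries unequal weight. Fga lies on chromosome 3 (83026076 to 83033627, plus strand).

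**Figure D1:**
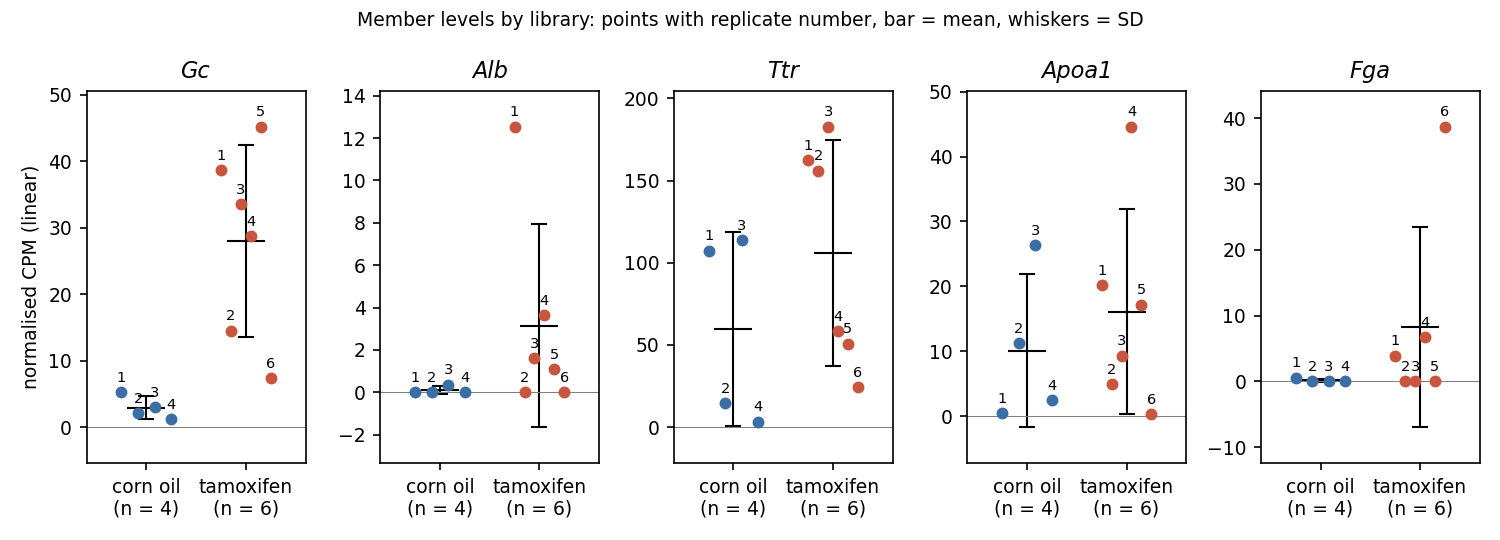
Normalised CPM (linear axes, 1 panel per gene) of the 5 genes in each library; points are libraries with their replicate number, the bar is the group mean and the whiskers are the SD (4 corn oil, 6 tamoxifen). Only in the Gc panel do the groups not overlap: corn oil lies at or below 5.23 and tamoxifen at or above 7.35.

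All 5 genes passed the filter on low counts that left 13006 of 15624 genes. Alb and Fga did so with reads in 5 libraries each, 4 of them tamoxifen libraries, so a difference in that direction was in part built into their passing. Per kilobase of exon, which allows levels of different genes to be compared, the order with corn oil was Ttr (50.3 normalised CPM per kb), Apoa1 (8.18), Gc (1.56), Fga (0.0460) and Alb (0.0387). With tamoxifen it was Ttr (89.1), Gc (15.2), Apoa1 (13.02), Fga (2.73) and Alb (1.34). Gc and Apoa1 changed places, but their tamoxifen levels lay within each other's spread between libraries, as did those of Fga and Alb. Alb, which far exceeds Gc in liver, was below Gc in every library. The ratio of Alb to Gc per kilobase was 0.255 in tamoxifen replicate 1, 0.100 in replicate 4, 0.0379 in replicate 3 and 0.0191 in replicate 5. It was 0.0945 in corn oil replicate 3 and 0 elsewhere. Fga exceeded Gc per kilobase in 1 library, tamoxifen replicate 6, by a ratio of 3.23.

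How the members followed each other depended on which libraries were taken. On log2 CPM over all 10 libraries, Pearson r with Gc was 0.75 for Alb, 0.66 for Ttr, 0.39 for Apoa1 and 0.26 for Fga. Over the 6 tamoxifen libraries, where the group difference plays no part, it was 0.82 for Alb, 0.47 for Ttr, 0.88 for Apoa1 and -0.51 for Fga. By rank within tamoxifen, Spearman rho with Gc was 0.58 for Alb, 0.31 for Ttr, 0.60 for Apoa1 and -0.67 for Fga. These are descriptions without a test, over few libraries that differ in depth, and tamoxifen replicate 6 is low for Gc, Alb and Apoa1 alike. In tamoxifen replicate 2 Gc stood at 14.5 normalised CPM with no Alb read, so Gc was also seen without Alb.

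Hepatocyte markers other than the members were measured beside them. Of 9 such markers (Apoa2, Fgb, Fgg, Serpina1a, Serpina1b, Ahsg, Hpx, Mup3 and Mup20), 3 were at 0 in all corn oil libraries and none was at 0 in all tamoxifen libraries. Their summed level was 2.65, 5.58, 3.75 and 1.79 normalised CPM in corn oil replicates 1 to 4, with 2, 2, 5 and 2 of the 9 detected. In tamoxifen replicates 1 to 6 the sum was 33.9, 0.605, 1.23, 18.1, 3.68 and 18.6, with 9, 2, 3, 6, 7 and 1 detected. By this sum, replicates 1, 4 and 6 were above every corn oil library, and replicates 2, 3 and 5 were not. Hpx held 1.11, 4.97, 1.97 and 1.66 of the sums in corn oil replicates 1 to 4, and 0.448 in tamoxifen replicate 5. Alb, left out of the sum, was at 1.61 and 1.09 in tamoxifen replicates 3 and 5, above every corn oil library, and at 0 in replicate 2.

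The libraries with more hepatocyte marker RNA did not hold the same markers. Tamoxifen replicate 1 had Apoa2 at 14.2, Mup3, a major urinary protein, at 7.93, Fgg at 3.75 and Fgb at 3.31 normalised CPM, and it also had the most Alb. Replicate 4 had Hpx, which binds free heme, at 8.80, Serpina1b, an antitrypsin, at 5.97 and Fgb at 2.45. In replicate 6 the sum was Fgg alone at 18.6, beside Fga at 38.7, with Fgb, the third fibrinogen chain, at 0. Replicate 5, with the highest Gc (45.2), had a sum of 3.68, inside the corn oil range, though 7 of the 9 markers were detected. Tamoxifen replicate 3, with Gc at 33.5, had a sum of 1.23. Without replicates 1, 4 and 6, a set chosen after the values were seen, the log2 fold change of Gc was 3.43. The part of hepatocyte RNA in the Gc level was not tested. Serpina1a and Serpina1b have near-identical copies, so their reads may be divided among them.

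**Figure D2:**
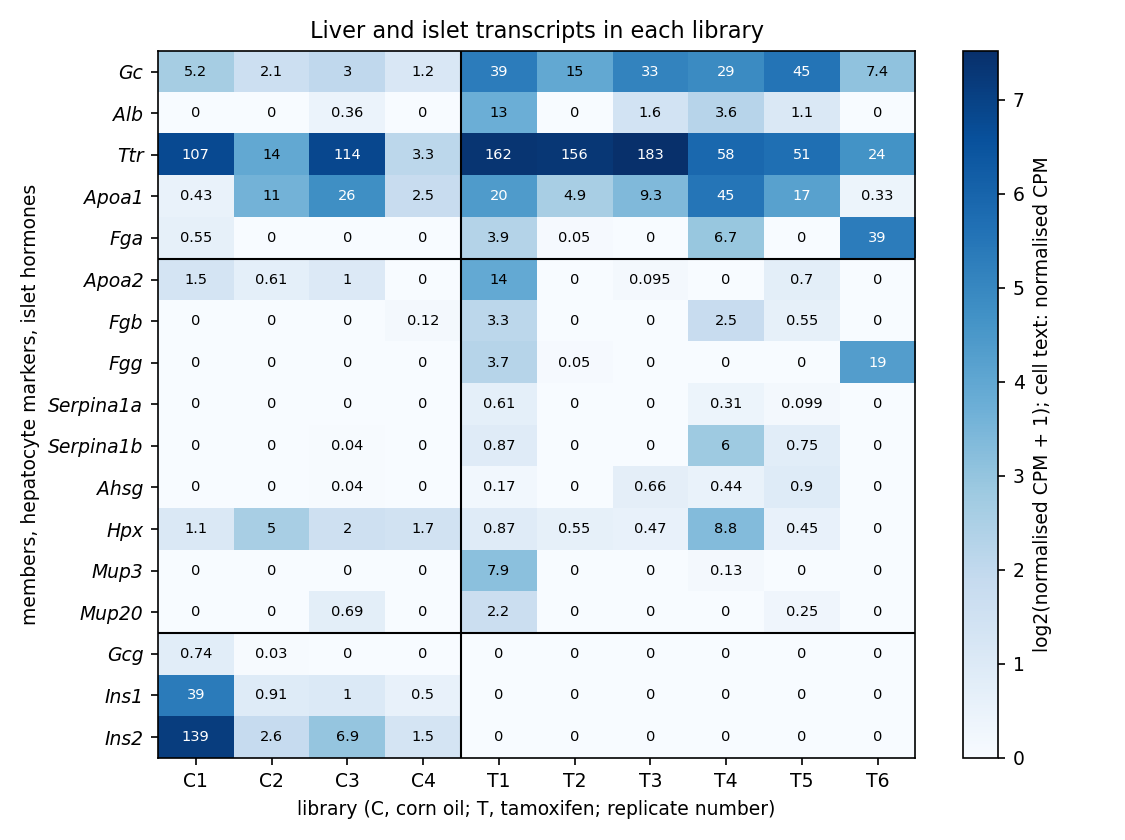
Normalised CPM (cell text) of the 5 genes, 9 other hepatocyte markers and 3 islet hormone genes in the 4 corn oil (C) and 6 tamoxifen (T) libraries, with colour showing log2(normalised CPM + 1). Gc is at 7.35 or more in every tamoxifen library, while the sum of the other hepatocyte markers is highest in T1, T4 and T6 and Gcg, Ins1 and Ins2 are at 0 in all 6.

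Islet cells, which also make Gc and Ttr, were read by their hormones. Gcg, glucagon, the defining product of alpha cells, was at 0 in all 6 tamoxifen libraries and at 0.739, 0.0305, 0 and 0 normalised CPM with corn oil. The insulin genes Ins1 and Ins2 were also at 0 in every tamoxifen library, and Ins2 stood at 139, 2.62, 6.89 and 1.497 with corn oil. Alpha cell markers other than Gc and Ttr (6 measured, among them Gcg, Chga and Chgb) summed to 6.10 to 26.8 with corn oil and 0.654 to 9.996 with tamoxifen, and 2 of these 6 (Gcg and Chga) were at 0 in all tamoxifen libraries. Iapp, another islet hormone, was at 30.9, 0.579, 24.6 and 0.499 in corn oil replicates 1 to 4. With tamoxifen it was at 0.0871 in replicate 1 and at 0 in the others. Ttr was at 107 in corn oil replicate 1, the library richest in Ins2, and at 114 in replicate 3. These corn oil libraries were also the highest for Iapp. Gcg, Ins1 and Ins2 were at 0 in the 3 tamoxifen libraries with the highest Ttr. The part of islet RNA in the Ttr level was not tested.

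The summed markers of the other cell types overlapped between the groups. Enterocyte markers other than Apoa1 (5 measured, Rbp2 and Vil1 the most abundant) summed to 123 to 286 with corn oil and 73.0 to 137 with tamoxifen. Fibroblast markers (11, led by Col3a1 and Col1a2) summed to 128 to 469 and 135 to 1053, with the highest value in tamoxifen replicate 4, the library highest for Apoa1. Macrophage markers (9, led by Lyz2 and C1qb) summed to 567 to 839 and 126 to 1406. Acinar markers (10, Cela1 the most abundant) summed to 22.6 to 209 and 33.6 to 88.9, endothelial markers (8, Flt1 and Plvap) to 13.7 to 130 and 21.2 to 93.0, and the 3 erythroid and platelet markers, mostly Ppbp and Pf4, to 10.4 to 150 and 3.32 to 47.2. Of the other islet markers, Hhex, also a ductal and hepatic factor, was the most abundant, ahead of Pdx1. The part of any of these cell types in the member levels was not tested.

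The wider set of liver plasma proteins was then taken from 5 lists of known function, 104 genes besides the members, of which 68 were in the table and 45 were tested. With edgeR's quasi-likelihood test and Benjamini-Hochberg adjustment over all genes, 0 of the 45 passed an FDR of 0.05 in either direction, where 5 of 13006 genes (0.0384%) did in all, 1 of them higher (0.00769%). At an unadjusted p under 0.05 there were 5 higher and 2 lower of the 45, against 1262 of 13006 (9.7%) of all genes in either direction and 4.43% higher. DESeq2 called 1 higher and 0 lower, where it called 1.89% of all genes in either direction. Limma voom called 3 higher and 5 lower, where it called 9.62% of all genes. Of the 45, 29 had a log2 fold change above 0 and 16 below (64.4% above, against 49.3% of all genes), with a median of 0.76 against -0.01 over all genes. The 29 include Kng2, a clotting gene that could pass the filter only through tamoxifen libraries. The 5 higher at an unadjusted p under 0.05 may include it too. The median was 0.30 to 1.32 with 1 library left out at a time. It was 0.074 without tamoxifen replicates 4 and 6, and 0.19 without replicates 1, 4 and 6, a set chosen after the values were seen.

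Carriers, the class of Gc, Alb and Ttr, had 9 other tested genes, 6 higher and 3 lower, with a median log2 fold change of 0.43. Trf, transferrin, the iron carrier, was the most abundant and was 333 ± 297 normalised CPM (SD, n = 4) in corn oil libraries and 1239 ± 731 (SD, n = 6) in tamoxifen libraries, with a fitted log2 difference of 1.90 (SE 0.63, adjusted p = 0.327 by edgeR). Its corn oil libraries held 269, 63.9, 241 and 757, and 1 tamoxifen library (replicate 6, at 397) lay below the highest of them. Trf was the gene that DESeq2 called. Rbp4, the retinol carrier that travels with Ttr, had a fitted log2 difference of 0.997 (SE 0.62, adjusted p = 0.674 by edgeR) and shared with Ttr its high values in tamoxifen replicates 1 to 3, at 307, 284 and 289. Without these 3 libraries its log2 difference was 0.14, and without corn oil replicate 3 it was 1.65. Voom called 3 of the 45 plasma proteins higher, with Trf (1.98) and Rbp4 (1.66) among them. It called 5 lower, with F5, Apoc2 and Apoe among them, and 9.62% of all genes in either direction. Cp, ceruloplasmin, the copper carrier, was at 0.43 (SE 0.83), with a sign that turned without tamoxifen replicates 4 and 6 (-0.034).

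Afp, the fetal albumin and nearest relative of Alb on the chromosome, did not share the pattern of Gc or Alb. It was at 28.1, 12.6, 2.46 and 55.4 normalised CPM with corn oil and at 20.3, 17.8, 22.4, 3.14, 14.4 and 11.9 with tamoxifen. Every tamoxifen value lay inside the corn oil range. The log2 fold change was -0.72 (SE 0.71, edgeR adjusted p = 0.825), and its sign was positive with sex as a covariate (0.27).

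Apolipoproteins other than Apoa1 (9 tested) divided into 4 higher and 5 lower, with a median of -0.11. Apoe and Apob, the most abundant, had log2 fold changes of -0.58 (SE 0.77) and -2.66 (SE 1.67). The sign of Apoe turned without tamoxifen replicates 1 to 3 (0.28). Apob was 372 normalised CPM in corn oil replicate 1 and 1.25 to 46.7 in the other corn oil libraries, and its log2 fold change was -0.34 without that library and -8.20 without tamoxifen replicates 4 and 6. Apoc2, an activator of lipoprotein lipase, had -1.64 (SE 0.77, edgeR adjusted p = 0.522). Clotting and fibrinolysis genes other than Fga (7 tested) had 3 higher and 4 lower, with a median of -0.19. F5, clotting factor V, averaged 119 ± 63.0 (SD, n = 4) in corn oil libraries and 17.5 ± 21.3 (SD, n = 6) in tamoxifen libraries, with a fitted log2 difference of -2.77 (SE 0.98, adjusted p = 0.352 by edgeR), opposite in direction to Fga. Pros1, protein S, was at 1.08 (SE 0.85). Kng2, a kininogen gene named after its values were seen, had 112 reads over 4 tamoxifen libraries and 0 with corn oil. It could pass the filter only through tamoxifen libraries, so its direction was built in, and it is 1 of the 3 higher genes of its list. Its pooled tamoxifen level was 38.7 times a floor of 3 counts over the corn oil group. That bound covers counting only and not the spread between libraries. Trf, F5 and Pzp each overlap another annotated gene, so their counts may share reads with it. With Kng2 set at that bound the medians of its list and of the 45 genes stayed at -0.19 and 0.76.

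The protease inhibitors (5 tested) all had a log2 fold change above 0, with a median of 1.22. Of these, 2 were under an unadjusted p of 0.05, against 4.43% of all genes in that direction. Fibroblast markers leaned the same way, with 10 of 10 tested above 0, a median of 0.88 and 2 under that p, while 10 of 11 ductal markers were below 0 with a median of -0.39 (0 past the FDR in edgeR for both lists). Their part in the inhibitor values was not tested. Pzp, an alpha-2-macroglobulin-type inhibitor, was 2.01 ± 1.75 (SD, n = 4) and 22.7 ± 18.8 (SD, n = 6), with a fitted log2 difference of 3.49 (SE 1.36, adjusted p = 0.415 by edgeR), close in size to that of Gc. Its tamoxifen libraries held 3.22, 27.3, 21.1, 34.9, 49.4 and 0.163. As for Gc, replicate 5 was the highest and replicate 6 the lowest, but replicate 1 lay inside the corn oil range of 0 to 3.87. Serpinf1, an inhibitor of vessel growth, was at 1.43 (SE 0.63, adjusted p = 0.484 by edgeR) and Serping1, the C1 inhibitor, at 0.88 (SE 0.66), which was -0.40 without tamoxifen replicates 4 and 6.

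Complement and acute phase genes (15 tested) had 11 higher and 4 lower, with a median of 0.87. The complement regulator Cfi had a log2 fold change of -1.499 (SE 0.62, adjusted p = 0.450 by edgeR). The most abundant were Lcn2, lipocalin 2, at 0.87 (SE 1.28), which was -0.81 without tamoxifen replicates 4 and 6, and Cfb, complement factor B, at -0.37 (SE 0.47). Fibroblast marker sums were also highest in tamoxifen replicates 4 and 6, at 1053 and 711, and the part of fibroblast RNA in these values was not tested.

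Enzymes and receptors that hepatocytes keep in the cell gave few measurements, with summed levels of 119 to 281 normalised CPM with corn oil and 179 to 261 with tamoxifen. Of 29 such genes 12 were in the table and 5 were tested, with 1 log2 fold change above 0 and 4 below. Their median was -1.13 and 0 passed the FDR in edgeR. At an unadjusted p under 0.05 there was 1 lower, against 9.7% of all genes in either direction. Cps1, Otc, Cyp2e1 and Asgr1 were not analysed here. The one above 0 was Tfr2, a sensor of transferrin iron, at 1.07 (SE 0.77). Fah, the last enzyme of tyrosine breakdown, was 44.3 ± 21.3 (SD, n = 4) and 19.9 ± 7.29 (SD, n = 6), at -1.15 (SE 0.41, adjusted p = 0.356 by edgeR). Arg1, the arginase of the urea cycle and of macrophages, was 84.5 ± 66.4 and 74.0 ± 70.8. The median was 0.094 over the 6 genes tested without corn oil replicate 2, and -0.28 over all 12 measured genes with no filter.

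**Figure D3:**
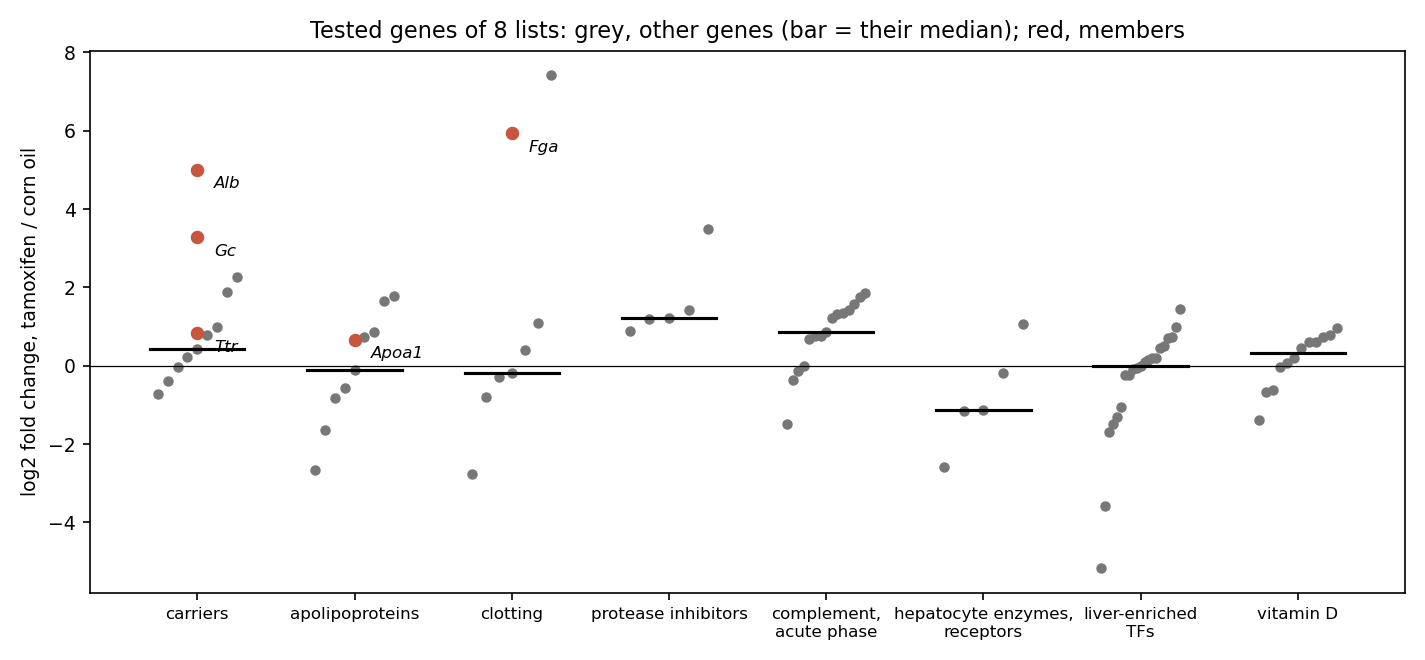
Log2 fold change, tamoxifen against corn oil, of each tested gene in 8 lists; grey points are genes other than the members, black bars their median, and red points the members. Plasma protein lists have medians from -0.19 (clotting) to 1.22 (protease inhibitors), and hepatocyte enzymes and receptors have -1.13.

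The factors that act on liver promoters gave no common direction. Of 26 liver-enriched transcription factors 21 were tested, 11 higher and 10 lower. Their median log2 fold change was 0.00 and 0 passed the FDR in edgeR. At an unadjusted p under 0.05 there were 1 higher and 4 lower, against 9.7% of all genes in either direction. Hnf4a, a factor of liver and gut epithelium, was at 87.5 ± 26.3 normalised CPM (SD, n = 4) in corn oil libraries and 82.1 ± 33.3 (SD, n = 6) in tamoxifen libraries, and the groups overlapped.

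Foxa1 and Foxa3, of the FOXA family, had the smallest p among these factors and were lower. Foxa1 was 58.5 ± 12.7 (SD, n = 4) in corn oil libraries and 4.85 ± 6.55 (SD, n = 6) in tamoxifen libraries, with a fitted log2 difference of -3.58 (SE 0.84, adjusted p = 0.166 by edgeR), and Foxa3 was 76.5 ± 18.4 and 27.1 ± 6.66, at -1.49 (SE 0.29, adjusted p = 0.102 by edgeR). In both the groups did not overlap, as for 3.23% of all tested genes in either direction. Over 22 alternative fits Foxa1 passed the FDR in 4 and Foxa3 in 3. Foxa2 was 74.7 ± 19.4 and 102 ± 30.9, at 0.44 (SE 0.31, adjusted p = 0.710 by edgeR). Of the most abundant factors, Cebpb was at 0.71 (SE 0.28, adjusted p = 0.432 by edgeR), and Xbp1, a factor of secretory cells, stood at 607 ± 191 and 607 ± 167.

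Genes of the functions that Gc serves were looked at as well. Of 18 genes for vitamin D handling and response 12 were tested, 8 higher and 4 lower. Their median was 0.32 and 0 passed the FDR in edgeR. At an unadjusted p under 0.05 there were 2 higher and 1 lower, against 9.7% of all genes in either direction. Vdr, the vitamin D receptor, was 22.3 ± 11.5 (SD, n = 4) and 14.6 ± 12.1 (SD, n = 6) normalised CPM, and its partner Rxrb was 48.8 ± 9.54 and 81.6 ± 16.4, at 0.74 (SE 0.26, adjusted p = 0.340 by edgeR). Cd14, a bacterial lipopolysaccharide receptor under vitamin D control, was 405 ± 138 and 783 ± 88.0, at 0.95 (SE 0.25, adjusted p = 0.227 by edgeR). The most abundant were Spp1, osteopontin, at 10475 ± 5659 and 11019 ± 5597, and Pdia3, a chaperone that binds vitamin D, at -0.68 (SE 0.30). Of the genes that clear actin and heme from plasma, 5 besides Gc and Alb were tested, 3 higher and 2 lower with a median of 0.22. Gsn, gelsolin, which severs the actin that Gc binds, was 342 ± 41.4 and 262 ± 138, and Lrp1, the receptor for the heme and Hpx complex, was at 0.56 (SE 0.63).

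The neighbours of Gc on chromosome 5 did not share its difference as a block. Within 2 Mb of its start lie 54 other protein-coding genes, of which 27 were in the table and 24 besides Gc and Alb were tested. Of these, 11 were higher and 13 lower with a median log2 fold change of -0.02, and 0 passed the FDR in edgeR. At an unadjusted p under 0.05 there were 2, against 9.7% of all genes in either direction. The nearest tested gene, Slc4a4, a sodium bicarbonate cotransporter whose start lies 571080 bases away, held 112, 98.8, 67.4 and 76.7 normalised CPM with corn oil and 164, 219, 190, 283, 205 and 335 with tamoxifen. Its groups did not overlap, and its log2 fold change was 1.39 (SE 0.27, edgeR adjusted p = 0.102). It passed the FDR in 2 of 22 alternative fits. Tamoxifen replicate 6 was the highest library for Slc4a4 and the lowest of its group for Gc. Grsf1, an RNA-binding protein of mitochondria, was at 0.81 (SE 0.30, adjusted p = 0.368 by edgeR).

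The remaining tested neighbours spread on both sides of 0. On the side of Slc4a4 were Mob1b at 0.46, Dck at -0.29, Rufy3 at 1.22, Utp3 at 0.15, Csn3 at -1.20, Sult1d1 at -0.03 and Sult1b1 at -1.10. On the side of Alb were Cox18 at 0.52, Ankrd17 at -0.01, Gm9958 at -1.09, Afp at -0.72, Rassf6 at 0.32, and further out the chemokine genes Cxcl5 at -0.23, Ppbp at -2.78, Pf4 at 0.13, Cxcl3 at 0.23, Cxcl1 at 1.26 and Cxcl2 at 0.39. The last were Mthfd2l at -0.23 and the growth factor genes Ereg at -0.50, Areg at -1.26 and Btc at -0.61. Of the genes between Gc and Alb, then, none of the tested ones came near the log2 fold change of Gc.

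**Figure D4:**
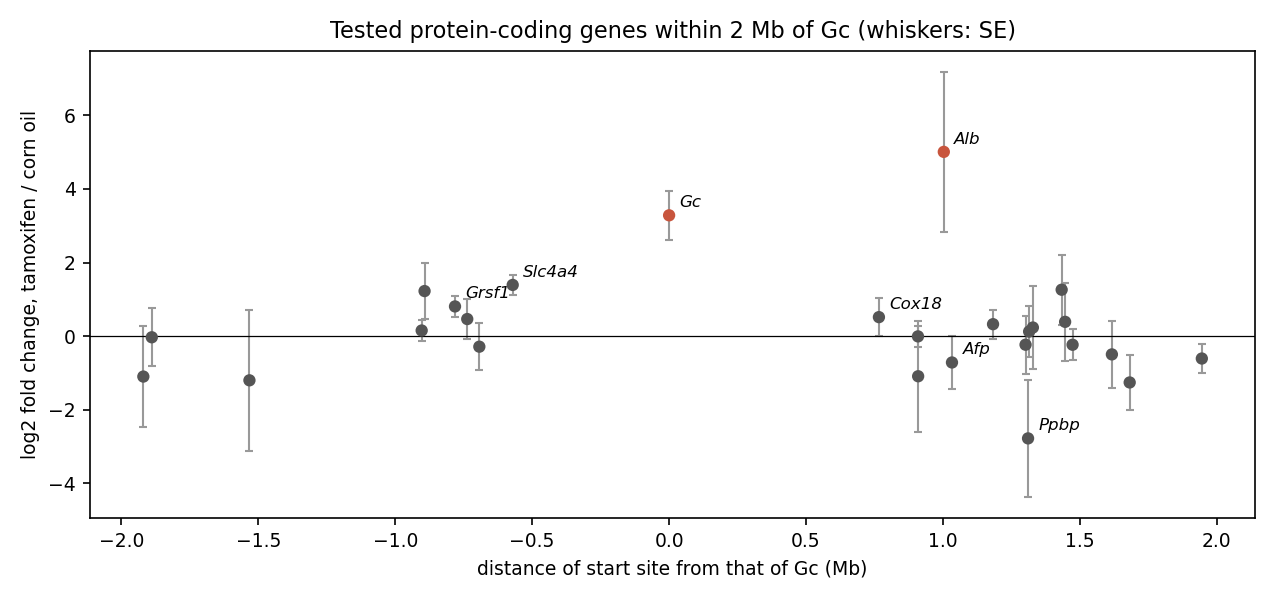
Log2 fold change, tamoxifen against corn oil (whiskers, SE), of tested protein-coding genes by the distance of their start from that of Gc in Mb; red points are Gc and Alb. Slc4a4 at 1.39 is the nearest tested gene, and the 24 neighbours spread around 0 with a median of -0.02.

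Among 8763 genes whose log2 CPM averaged 3 or more, Pearson r with Gc over the 10 libraries was highest for Ptpn2, a tyrosine phosphatase, at 0.90, Ulk2, an autophagy kinase, at 0.90, Bin1, a membrane-bending protein, at 0.88, Smo, the Hedgehog signal transducer, at 0.88 and Nthl1, a DNA repair glycosylase, at 0.88. It was lowest for Pkp4 at -0.93, Pmm1 at -0.92 and Vps36 at -0.92. These values mix the difference between the groups with the spread inside them. Over the 6 tamoxifen libraries alone r was 0.45 for Ptpn2, 0.68 for Ulk2, 0.30 for Bin1, 0.59 for Smo and 0.68 for Nthl1. It was -0.75 for Pkp4, -0.85 for Pmm1 and -0.68 for Vps36.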

How the data were processed

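The table deposited by the authors holds raw counts of reads for each gene symbol in 10 libraries. Extraction (Qiagen RNeasy micro), cDNA amplification (SMART-seq v4) and library preparation (Nextera XT) are as the labels' protocols state, and none of these kits marks strand. The submitters' processing notes name mm10 as the build and, as tools, featureCounts 1.5.0-p3, STAR 2.5.2b and bcl2fastq 2.17. Annotation, strand setting and the rule for reads with several matches were not given in the sources used here. Near-identical gene copies may therefore share or lose reads.

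From the counts, TMM factors, filterByExpr and edgeR's quasi-likelihood test (edgeR 4.0.16, R 4.3.3) compared 6 tamoxifen with 4 corn oil libraries over all 13006 tested genes, with Benjamini-Hochberg adjustment and an FDR of 0.05. SE is the log2 fold change divided by the square root of F. Log2 CPM used a prior count of 2. Alternatives were DESeq2 1.42.0, limma 3.58.1 (voom with quality weights), other scalings, filters, sex as a covariate and libraries left out.

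The members and lists were chosen with earlier results of these data known. From each list the text names the 2 most abundant tested genes and the 2 of smallest p, and other genes where a sentence needs them, such as Hnf4a, Foxa2 and Vdr. A few genes that this rule names are not reported here. Positions come from GENCODE M21 (GRCm38), and promoter sequence from RefSeq (GRCm38.p6).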

Additional observations from a re-analysis of the deposited data

Results flagged for a closer look

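Dixon's criterion was applied to 16 sets of values, each from 1 group, and 5 had a library far from the others. Chance gives about 1 in 20. Alb in corn oil replicate 3 was 0.363 normalised CPM with the other 3 at 0, and Alb in tamoxifen replicate 1 was 12.5 with the others at 0 to 3.64. Fga in corn oil replicate 1 was 0.554 with the others at 0. In both corn oil cases any single count would stand apart from 3 values of 0, so the rate of chance does not apply to them. Fga in tamoxifen replicate 6, the shallowest library, was 38.7 with the others at 0 to 6.66. The summed level of hepatocyte enzymes and receptors in tamoxifen replicate 6 was 261 with the others at 179 to 207. Of this sum Arg1, also a gene of macrophages, held 193 and Tfr2 58.8. No library stood apart for Gc, Ttr or Apoa1.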

How the results depend on the processing

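No paired analysis was possible because the labels give no replicate numbers that groups share. The log2 fold change of Gc was 3.03 to 3.73 with 1 library left out and 2.96 to 3.52 under 12 other alternatives. With 1 library left out, Ttr ran from 0.43 to 1.35 and Apoa1 from 0.039 to 1.77. Alb ran from 4.59 to 8.88 and Fga from 5.48 to 10.32 in the fits where they passed the filter (6 and 5 of 10). The highest values came without the only corn oil library that held a read (corn oil replicate 3 for Alb, 1 for Fga), so they depend on the prior count. Ttr was -0.42 without tamoxifen replicates 1 to 3, and Apoa1 was -0.48 with sex as a covariate. With tamoxifen replicates 1 to 3 counted as 1 sample, Gc was 3.25, Ttr 0.35, Apoa1 0.85 and Fga 6.46. With voom Ttr was 1.99, Apoa1 1.23, Fga 0.42 and Alb 2.72. The causes were not tested.

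Of the other plasma proteins, voom called 3 higher and 5 lower (9.62% of all genes) and DESeq2 called 1 higher (1.89% of all genes). Without tamoxifen replicates 4 and 6 edgeR called 1 lower (F5), and every other edgeR fit called 0 in either direction. Their median was 0.30 to 1.32 with 1 library left out and 0.074 to 0.84 otherwise, the lowest without tamoxifen replicates 4 and 6. The median of hepatocyte enzymes and receptors was -1.20 to 0.094 with 1 library left out, the last without corn oil replicate 2, where 6 genes in place of 5 were tested, and -0.13 without tamoxifen replicates 1 to 3.

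Of 35 other named genes with a fold, 30 never changed direction. Over 22 alternative fits Foxa1 passed the FDR in 4 and Foxa3 in 3. Bin1, Cd14, F5, Pkp4, Pmm1, Slc4a4 and Trf passed it in 2 each, and the others in fewer. The main fit called 0.0384% of all genes, DESeq2 1.89% and voom 9.62%. Afp was 0.27 with sex as a covariate, 0.33 with voom and from -1.09 to 0.064 with 1 library left out, the last without corn oil replicate 4. Apoe was 0.28 without tamoxifen replicates 1 to 3, and Serping1 -0.47 with voom. Without tamoxifen replicates 4 and 6, Cp was -0.034, Serping1 -0.40 and Lcn2 -0.81. Without replicates 1, 4 and 6, chosen after seeing the data, they were -0.15, -0.68 and -0.95. Depth limits Alb and Fga most, since a library at 0 allows up to 3 reads.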
